A study of Mus musculus with 18 samples.

Results

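The replication-dependent histone genes were taken as all rows of the expression table whose symbol starts with Hist1h, Hist2h, Hist3h or Hist4h, the older names of the clustered histone genes, and whose value was above 0 in at least 1 library. This gave 65 of 19326 rows. The study measured RNA in spleens of ICR mice, an outbred strain, aged 10 weeks, with 3 libraries in each of 6 groups. The groups were untreated controls, mice given AOS at 10 mg/kg, mice on a high fat diet (HFD), HFD mice given AOS at 10 mg/kg (HFD+AOS), HFD mice with FMT from AOS 10 mg/kg (HFD+AOS-FMT) and HFD mice with control FMT (HFD+control-FMT). AOS and FMT are the labels' abbreviations; the latter commonly stands for faecal microbiota transplantation. The labels name no transgene or gene deletion in any group, and they do not state whether the 3 libraries of a group came from 3 animals. P-values therefore measure only the spread between these libraries, part of which may be technical.

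Core histones H2A, H2B, H3 and H4 form the protein spool around which DNA is wound, and the linker histone H1 binds where the DNA enters and leaves it. Most of this protein is made from clusters of short genes without introns that are transcribed during S phase, while DNA is copied. Their messages end in a conserved stem-loop in place of a poly(A) tail, and this stem-loop is bound by the stem-loop binding protein, Slbp. In the spleen, dividing erythroid precursors of the red pulp and dividing B cells of germinal centres are among the cells known to pass through S phase.

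The stem-loop is a sequence element by which these messages are known, and the sequences below show how it differs between histone classes. Each line gives a 3′ end from the GENCODE vM21 model on GRCm38, written as DNA on the gene's strand, with the stem and loop in capitals and up to 5 flanking bases in lower case. Hist1h2ap and Hist1h2ao are shown as the most abundant members, Hist1h1c as the leading linker histone, Hist1h3b as a core histone H3, Hist2h2ac for its loop, and Hist1h4m and Hist1h4i as the leading H4 genes.
Hist1h2ap: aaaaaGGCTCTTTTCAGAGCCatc
Hist1h2ao: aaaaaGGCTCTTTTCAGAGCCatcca
Hist1h1c: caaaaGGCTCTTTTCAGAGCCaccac
Hist1h3b: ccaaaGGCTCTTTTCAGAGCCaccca
Hist2h2ac: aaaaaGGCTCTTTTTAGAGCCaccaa
Hist1h4m: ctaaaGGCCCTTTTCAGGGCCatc
Hist1h4i: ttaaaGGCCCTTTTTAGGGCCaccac

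The search asked for GGNNNNTTTNNNNNCC on the sense strand with 6 pairing bases in each arm around a loop of 4 bases. It matched in 43 of the 65 members, at a median of 32 bases after the stop codon (range 22 to 59). Among 21812 other protein-coding genes, 25 (0.115%) held a match anywhere in a transcript. Only 6 distinct stem-loops occurred. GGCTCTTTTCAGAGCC was the stem-loop of 26 members, all of class H1, H2A, H2B or H3. The 10 H4 matches had other arms: 6 read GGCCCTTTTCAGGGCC, 2 read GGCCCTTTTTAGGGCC and 2 read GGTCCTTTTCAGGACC. Of the 22 members without a match, 14 have models that hold the coding part only, so that no 3′ end was searched. A further 5 have models with at least 100 bases after the stop codon that were searched without a match. They are Hist1h2bc (742 bases), Hist2h2be (2192), Hist1h2br (823), Hist1h2bq (823) and Hist1h4a (154). In 3 more, a shorter 3′ end was searched without a match.

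The 65 genes lie in 4 clusters. Cluster 1 on chromosome 13 (GRCm38) holds 52 of them, of which 22 lie between 21715763 and 22043676 and 30 between 23531050 and 23934156. Cluster 2 on chromosome 3 holds 10 genes between 96219865 and 96270132, cluster 3 on chromosome 11 holds Hist3h2a and Hist3h2ba, and cluster 4 on chromosome 6 is Hist4h4 alone. By class there were 6 H1, 17 H2A, 18 H2B, 12 H3 and 12 H4 genes. Hist1h2aa, a further testis-expressed H2A gene, was not analysed here.

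Values are the deposited FPKM (fragments per kilobase of transcript, scaled to the reads mapped). Depth is unknown from such values, so single values carry no counting error. Column totals ranged from 627964 to 831448 FPKM, log2 values of any 2 libraries correlated at 0.945 to 0.992, and haemoglobin rows took between 10.8% (HFD 3) and 34.3% (control 1) of all FPKM. In bulk spleen RNA, fewer cells of a type and less RNA per cell cannot be told apart. A gene was tested if its mean reached 1 FPKM in any group, which 12969 genes did, with limma on log2(FPKM + 1). Differences below are on that scale, which understates the change of low genes.

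Most members were scarce. Of the 65, 2 averaged at least 100 FPKM over the 18 libraries, 8 averaged 10 to 100, 37 averaged 1 to 10 and 18 averaged under 1 FPKM. The filter kept 54 members, 5 of H1, 16 of H2A, 14 of H2B, 10 of H3 and 9 of H4. Just inside it were Hist1h1a (highest group mean 1.06 FPKM), Hist1h2bh (1.07) and Hist1h2bf (1.07), and just outside it Hist1h4a (0.913), Hist2h2ab (0.913) and Hist1h4j (0.820). A value of 0 occurred in at least 1 library for 22 members.

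Histone H2A carried 85.3% of the summed member FPKM, against 5.15% for H2B, 4.39% for H4, 3.14% for H1 and 1.97% for H3. This came from a pair of genes of cluster 1, Hist1h2ap (ENSMUSG00000094777.2, chr13:21833026-21833507, minus strand) and Hist1h2ao (ENSMUSG00000094248.1, chr13:21810465-21810944, plus strand). Together they made up 66.6% to 82.7% of the summed level in each library. Both encode core histone H2A.

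Hist1h2ap was at 1047.48, 840.15 and 586.05 FPKM in the control libraries and at 722.97, 720.64 and 646.65 with AOS. On the diet it was at 591.09, 247.11 and 305.74 in HFD, 1000.09, 463.19 and 446.94 in HFD+AOS, 750.32, 555.76 and 466.62 in HFD+AOS-FMT, and 612.26, 463.35 and 599.77 in HFD+control-FMT. HFD 2 and HFD 3 were the lowest of all 18 libraries, while HFD 1 lay just above the lowest control, so that the HFD and control groups overlapped by 1 library.

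Hist1h2ao was at 544.59, 348.88 and 292.34 FPKM in the controls, 326.25, 366.22 and 225.12 with AOS and 308.80, 245.76 and 355.64 in HFD. It was at 417.78, 334.62 and 236.59 in HFD+AOS, 388.48, 249.89 and 343.33 in HFD+AOS-FMT, and 221.62, 209.47 and 238.68 in HFD+control-FMT. Control 1 was highest for both genes, but the low HFD values of Hist1h2ap were not matched by Hist1h2ao. The ratio of Hist1h2ap to Hist1h2ao was 1.01 in HFD 2 and 0.860 in HFD 3, the lowest of the 18, and reached 2.87 elsewhere.

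**Figure D1:**
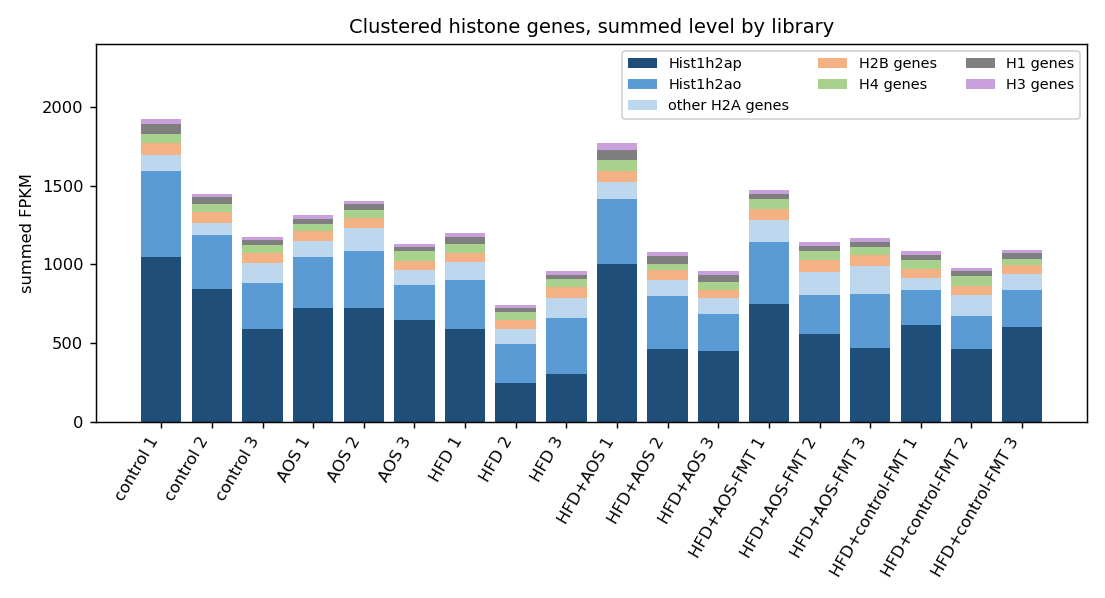
Summed FPKM of the 65 histone genes in each of the 18 libraries (bars), split into Hist1h2ap, Hist1h2ao, the other H2A genes and the classes H2B, H4, H1 and H3. The 2 H2A genes fill 66.6% to 82.7% of each bar, and control 1 and HFD+AOS 1 are the tallest bars.

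The summed level of all members was 1515 ± 381 FPKM in controls (SD, n = 3 here and for each group), 1282 ± 139 with AOS, 965 ± 230 in HFD, 1268 ± 437 in HFD+AOS, 1261 ± 184 in HFD+AOS-FMT and 1050 ± 62.4 in HFD+control-FMT. Controls averaged highest and HFD lowest, as for Hist1h2ap alone. Without Hist1h2ap the group means were 690 FPKM in controls, 585 with AOS, 584 in HFD, 632 in HFD+AOS, 670 in HFD+AOS-FMT and 491 in HFD+control-FMT, so the lowest group was then HFD+control-FMT.

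The sequence of these genes limits how far their levels can be assigned. Of all 50-base stretches of the Hist1h2ap model, 6.93% occur in no other gene, and for Hist1h2ao the share is 6.50%. Their coding parts hold no such stretch, and each shares sequence with 24 other genes. Over the 65 members the median share was 50.3%, with 32 members under 50%, 4 fully unique (Hist2h2be, Hist1h1a, Hist1h1b and Hist1h1t) and 3 with none (Hist1h2bq, Hist2h2aa2 and Hist2h3c1). How the authors assigned reads that fit several genes is not given in the sources used here, so the split between near-identical copies is uncertain.

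**Figure D2:**
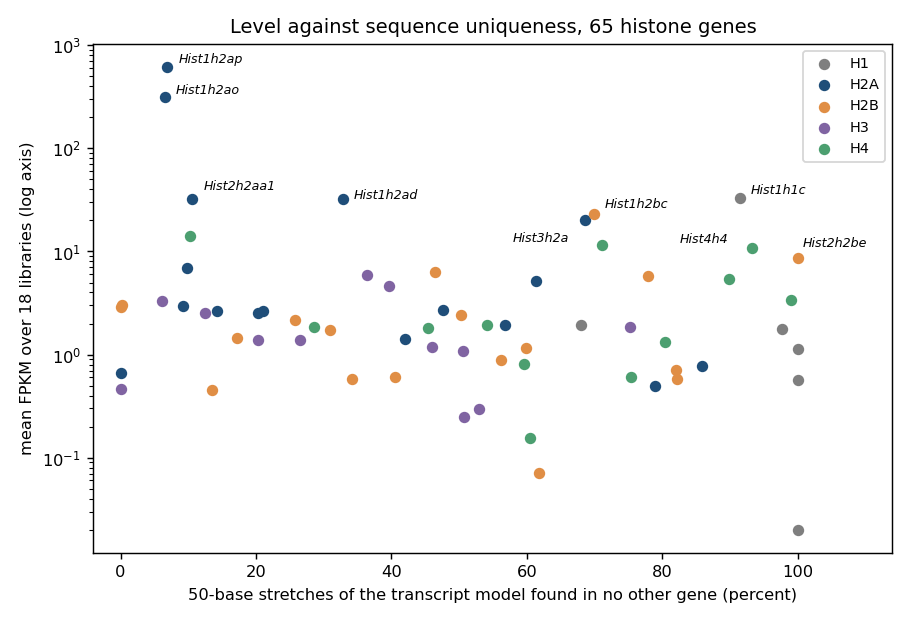
Mean FPKM over 18 libraries (log axis) against the percent of 50-base stretches of each gene's transcript model that occur in no other gene, for the 65 histone genes coloured by class. The most abundant genes, Hist1h2ap and Hist1h2ao, lie near the left edge, at 6.93% and 6.50%.

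Near-identical copies are shown by their values. Hist1h2bq and Hist1h2br, H2B copies, held the same value above 0 in 14 of 18 libraries. Hist2h3c1 was listed at 0 in 16 libraries, and in AOS 3, where it read 3.99 FPKM, its copy Hist2h3c2 was listed at 0. The sum of Hist2h2aa1 and Hist2h2aa2 had a coefficient of variation of 9.48%, against 10.4% for Hist2h2aa1 alone and 198% for the scarce Hist2h2aa2.

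Hist1h2ap and Hist1h2br also show how members share a promoter. The 2 genes face away from each other with 236 bases between their models, and 233 bases of their promoter windows are the same DNA read on opposite strands. The windows of Hist1h2ap and Hist1h2ao share an unbroken run of 200 bases on the same strand. The 2 windows follow, from 250 bases before to 50 bases after the RefSeq start on GRCm38.p6, with each CCAAT and its reverse ATTGG in capitals.
Hist1h2ap, chr13:21833426-21833725, minus strand: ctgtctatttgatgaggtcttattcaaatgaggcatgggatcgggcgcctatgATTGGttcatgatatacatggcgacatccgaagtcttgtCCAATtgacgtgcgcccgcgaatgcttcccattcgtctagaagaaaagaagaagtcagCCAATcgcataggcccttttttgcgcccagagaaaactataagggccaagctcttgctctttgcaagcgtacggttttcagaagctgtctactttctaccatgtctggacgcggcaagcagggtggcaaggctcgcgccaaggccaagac
Hist1h2ao, chr13:21810117-21810416, plus strand: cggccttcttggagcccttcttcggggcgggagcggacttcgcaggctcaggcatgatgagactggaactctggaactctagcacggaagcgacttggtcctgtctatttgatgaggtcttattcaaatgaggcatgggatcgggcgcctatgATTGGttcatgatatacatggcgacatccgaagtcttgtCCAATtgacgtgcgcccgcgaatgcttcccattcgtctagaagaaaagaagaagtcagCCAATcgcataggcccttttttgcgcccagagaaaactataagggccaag

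RefSeq promoter windows of 300 bases were found for 60 of the 65 members and searched on both strands for the CCAAT box, the TATA box written TATAAA, and the octamer ATTTGCAT, none of which contains another. A member was counted if any of its windows held the letters, whereas the shares over all genes are of single windows. The CCAAT letters were present for all 6 H1, 17 H2A, 16 H2B and 10 H3 genes but for 3 of 11 H4 genes. Of 32851 promoter windows of all genes, 37.4% held them. This octamer, known from H2B promoters, was found for 7 of 16 H2B and 6 of 17 H2A genes, against 1.74% of all windows. It was found for none of the H1, H3 or H4 genes. TATAAA was found for 33 of 60 members, against 13.6% of all windows. These are matches of letters only. As for Hist1h2ap and Hist1h2br, windows of H2A and H2B genes that face away from each other can hold the same DNA. The same site can then count in both classes, so these counts are not independent.

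A total of 11 H2A genes lay head to head with an H2B gene, with gaps of 176 to 302 bases. The 2 partners were not at one level. The ratio of the higher to the lower mean FPKM ran from 1.26 (Hist1h2bg over Hist1h2ae) to 202.5 (Hist1h2ap, 614.8 FPKM, over Hist1h2br, 3.04 FPKM), with a median of 4.74. Partner sequence uniqueness differs, as given above.

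The replicated comparisons gave no histone gene past an adjusted p of 0.05 with limma. In HFD against control, 0 of 54 members passed, against 2.75% of all genes tested, and 6 had an unadjusted p under 0.05, against 28.6% of all. Of these 6, 2 were higher (19.5% of all) and 4 lower (9.08% of all) in HFD. The median difference over the 54 members was -0.07 log2, against 0.10 over all genes. It was 0.071 without control 1 and -0.22 without control 3. Groups did not overlap for 2 members higher in HFD (14.0% of all genes) and 3 lower (5.44% of all), so the members' shares lay near or under the background.

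Hist1h2ap had the smallest p: its level averaged 381 ± 184 FPKM in HFD and 825 ± 231 in controls, a difference of -1.17 log2 (SE 0.335, limma adjusted p = 0.0600). Leaving out control 3 (-1.40, adjusted p = 0.0164), HFD 1 (-1.54, adjusted p = 0.0136) or HFD+AOS 1 (-1.17, adjusted p = 0.0437) put it past the threshold, while it was -0.98 (adjusted p = 0.274) without control 1 and -0.91 (adjusted p = 0.237) without HFD 2. It also passed on raising the filter to 5 FPKM (limma adjusted p = 0.0487), where 625 genes passed in all. Without control 3, Hist1h2ag, another H2A gene, also passed (limma adjusted p = 0.0131). Over all genes, 3818 of 13038 passed without control 3, 1204 of 12981 without HFD 1 and 386 of 13005 without HFD+AOS 1. Haemoglobin rows took 11.0% and 10.8% of FPKM in HFD 2 and HFD 3, the 2 libraries lowest in Hist1h2ap, and 27.4% in HFD 1, and their part in the difference was not tested.

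Hist1h2br, an H2B gene, was at 1.87, 3.08 and 2.76 FPKM in HFD and at 4.43, 3.33 and 5.53 in controls. All 3 HFD libraries lay below the controls, at a difference of -0.60 log2 (SE 0.204, adjusted p = 0.0865). With 0.166% of its 50-base stretches unique, its split from Hist1h2bq is uncertain: in control 3, Hist1h2bq read 0.74 FPKM beside the 5.53 of Hist1h2br. Summed, the 2 copies read 3.74, 6.16 and 7.03 FPKM in HFD and 8.86, 6.66 and 6.27 in controls, so that the groups overlapped.

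Hist1h3b encodes core histone H3. It was at 3.57, 1.30 and 2.51 FPKM in HFD, 7.99, 4.24 and 3.41 in controls and 4.15, 5.31 and 3.45 with AOS. It was at 10.92, 7.32 and 4.98 in HFD+AOS, 6.47, 6.06 and 3.23 in HFD+AOS-FMT and 3.07, 1.44 and 3.47 in HFD+control-FMT. The HFD+AOS libraries all lay above those of HFD and of HFD+control-FMT, whereas HFD overlapped controls by 1 library (-0.83 log2, SE 0.340, adjusted p = 0.131).

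**Figure D3:**
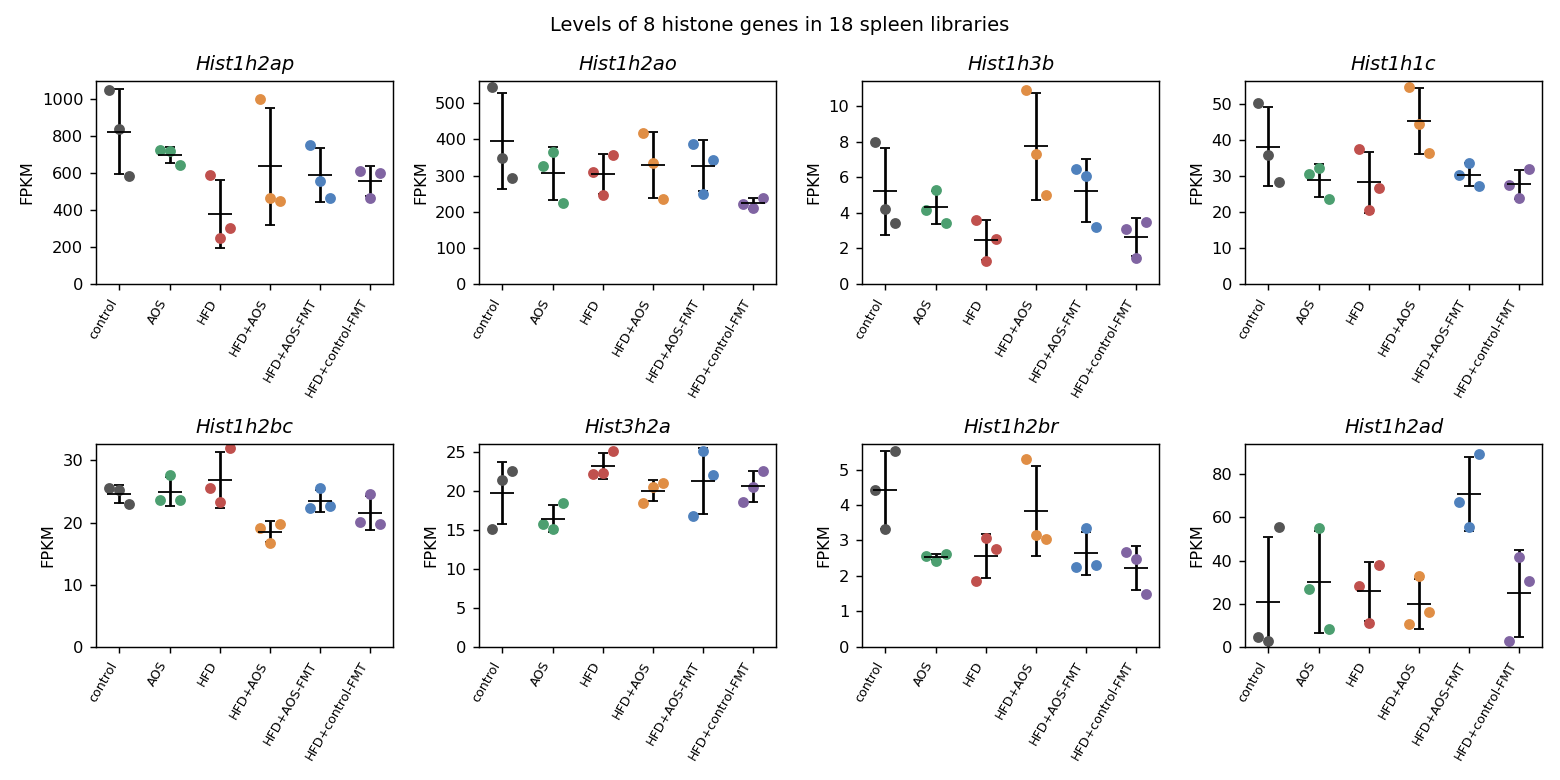
FPKM of 8 histone genes in 18 libraries by group (points), with the group mean (horizontal mark) and SD (bars, n = 3, ending at the axis where they would pass below 0). Hist1h2ap is lowest in 2 of the HFD libraries, Hist1h2bc is lowest in HFD+AOS, and all 3 HFD+AOS-FMT libraries of Hist1h2ad lie at or above 55.76 FPKM.

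In AOS against control, 0 of 54 members passed (0% of all genes), and 5 had an unadjusted p under 0.05, against 15.4% of all. These 5 were lower with AOS (5.23% of all) and none was higher (10.2% of all). The 2 smallest p belonged to Hist1h2br, at 2.57, 2.43 and 2.61 FPKM with AOS (-0.60 log2, SE 0.204, adjusted p = 0.194), and Hist1h2ak, an H2A gene. Hist1h2ak was at 1.84, 2.36 and 1.47 FPKM with AOS and 4.55, 3.18 and 3.36 in controls (-0.70 log2, SE 0.262, adjusted p = 0.226). Neither gene's groups overlapped, and the sum of Hist1h2bq and Hist1h2br, at 4.64, 4.86 and 5.22 FPKM with AOS, lay below all controls too. In total 5 members lay wholly lower (5.10% of all genes) and 2 wholly higher (11.7% of all). The median was -0.07 log2, against 0.05 over all genes, and it was 0.11 without control 1.

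The comparisons of HFD+AOS, HFD+AOS-FMT and HFD+control-FMT with HFD share the HFD libraries with each other and with HFD against control. Adding AOS to the diet gave a median difference of 0.24 log2 from HFD over the 54 members, against -0.03 over all genes, of which 58.1% lay below 0. No member passed (0% of all genes), and 7 had an unadjusted p under 0.05 (15.0% of all), 5 higher (6.16%) and 2 lower (8.85%) with AOS. Without HFD+AOS 1, the median was 0.017 log2. That library held the highest value of its group in 38 of 54 members, and control 1 did so in 39 of 54. The same share over all genes tested was not counted, so this may not be particular to histone genes. With the filter raised to 5 FPKM the median over the members left was -0.076 log2.

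Hist1h2bc, an H2B gene, had the smallest p in this comparison, with an estimate below 0. It was at 19.20, 16.66 and 19.76 FPKM in HFD+AOS and at 25.53, 23.28 and 31.93 in HFD, with all 3 HFD+AOS libraries below HFD (-0.51 log2, SE 0.114, adjusted p = 0.168). It was at 25.59, 25.26 and 22.93 in controls, 23.59, 27.62 and 23.68 with AOS, 22.36, 25.49 and 22.61 in HFD+AOS-FMT and 20.13, 24.63 and 19.77 in HFD+control-FMT. The HFD+AOS libraries were the lowest 3 of the 18.

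Hist1h3b had the next smallest p, with the libraries given above: 7.74 ± 2.99 FPKM in HFD+AOS against 2.46 ± 1.14 in HFD (1.34 log2, SE 0.340, adjusted p = 0.172). Hist1h2ap averaged 637 ± 315 FPKM in HFD+AOS, against 381 in HFD (0.74 log2, SE 0.335, adjusted p = 0.326). Without both libraries numbered 1 the means were 455 and 276 FPKM, and Hist1h2ap was higher in HFD+AOS in 3 of 3 same-numbered pairs. The numbers were treated as pairs from correlations in these same data, not from the labels. HFD+AOS 3 correlated more highly with an HFD library of another number, so the pair counts are a description only. The share of all genes higher in 3 of 3 pairs was not counted. All 5 linker histone genes tested lay above HFD in mean, with a median of 0.52 log2. In total 6 members lay wholly higher in HFD+AOS than in HFD (6.42% of all genes) and 3 wholly lower (9.57% of all).

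Linker histones were led by Hist1h1c (H1.2), at 50.05, 35.90 and 28.34 FPKM in controls, 30.51, 32.28 and 23.51 with AOS and 37.36, 20.62 and 26.64 in HFD. It was at 54.53, 44.40 and 36.32 in HFD+AOS, 30.24, 33.51 and 27.29 in HFD+AOS-FMT and 27.41, 23.74 and 31.80 in HFD+control-FMT. The HFD+AOS libraries were high, but the lowest of them was below HFD 1, so those groups overlapped (0.68 log2, SE 0.220, adjusted p = 0.220). Of its 50-base stretches 91.5% are unique. Hist1h1c was higher in HFD+AOS in 3 of 3 same-numbered pairs, with the same limits as for Hist1h2ap.

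The other linker histones were low. Hist1h1e averaged 1.94 FPKM over all libraries (range 1.22 to 2.77), Hist1h1d 1.77 (0.78 to 4.10), Hist1h1b 1.13 (0.42 to 3.30) and Hist1h1a 0.568 (0.11 to 1.52). HFD+AOS 1 held the highest value of Hist1h1d, at 4.10, and of Hist1h1a, at 1.52, and control 1 that of Hist1h1b, at 3.30. Hist1h1t, the testis linker histone, was listed at 0.12 FPKM in HFD 2 and in libraries 1 and 3 of HFD+control-FMT and at 0 in the other 15.

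Hist1h2ba, a testis-expressed H2B gene, read 0.24 to 0.27 FPKM in 5 libraries and 0 in the other 13. These 2 genes were set beside a list of 14 testis germ cell markers, because control libraries held germ cell transcripts: the summed level of that list was 20.2 to 299 FPKM in controls and at most 19.0 elsewhere. In control 2, where the protamine gene Prm1 read 85.59 FPKM, Hist1h1t was listed at 0 and Hist1h2ba at 0.24 FPKM. Both genes were below the filter and were not tested.

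The interaction of AOS and diet asked whether the AOS difference on the diet departed from that off the diet. Its median over the 54 members was 0.30 log2, against -0.09 over all genes, and 10 members had an unadjusted p under 0.05 (15.9% of all), 9 above 0 (5.81%) and 1 below (10.1%). No member passed (0% of all genes). Hist1h2br (1.02 log2, SE 0.289) and Hist1h1c (1.05 log2, SE 0.311) had the smallest p, each with a limma adjusted p of 0.221. Without HFD+AOS 1 the median was 0.056 log2, without control 1 it was 0.13 and without control 3 it was 0.52.

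HFD+AOS-FMT averaged above HFD by a median of 0.18 log2 over the members, against -0.07 over all genes. No member passed (0% of all genes), and 4 had an unadjusted p under 0.05 (13.6% of all), 3 higher (4.56%) and 1 lower (9.09%). Hist1h3b differed by 0.87 log2 (SE 0.340, adjusted p = 0.307). Hist2h2be, a fully unique H2B gene of cluster 2, was at 9.87, 10.11 and 10.72 FPKM in HFD+AOS-FMT, above 7.94, 8.53 and 9.02 in HFD, with no overlap (0.24 log2, SE 0.103, adjusted p = 0.334). In total 6 members lay wholly higher (6.25% of all genes) and 1 wholly lower (16.7% of all).

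For HFD+control-FMT against HFD the median was -0.05 log2, against -0.02 over all genes. No member passed (0.0154% of all genes), and 2 had an unadjusted p under 0.05 (4.63% of all), none higher (2.69%) and 2 lower (1.94%). They were Hist1h2bc (-0.31 log2, SE 0.114, adjusted p = 0.991) and Hist1h2bp, an H2B gene. Hist1h2bp was at 0.74, 0 and 0.98 FPKM, below 1.29, 1.64 and 1.80 in HFD (-0.77 log2, SE 0.324, adjusted p = 0.999). No member lay wholly higher (4.57% of all genes) and 2 lay wholly lower (5.59% of all).

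The 2 FMT groups differed by a median of 0.17 log2 over the members, higher in HFD+AOS-FMT, against -0.05 over all genes, and by 0.056 without HFD+control-FMT 3. In sign 39 of 54 members were higher, among them all 14 H2B genes tested, 11 of 16 H2A, 7 of 9 H4, 4 of 10 H3 and 3 of 5 H1 genes. All genes tested went the other way in 65.2% of cases. The 14 H2B genes remained higher after median-ratio scaling and after removal of haemoglobin rows. They are not independent of each other, since several share most of their sequence. In the same comparison 21 of 22 genes of S phase and DNA replication lay above 0 (median 0.24 log2), and none of them passed. No member passed (0.00771% of all genes), 8 had an unadjusted p under 0.05 (10.5% of all), 7 higher (3.86%) and 1 lower (6.60%), and 9 lay wholly higher (7.80% of all) and 1 wholly lower (15.6% of all).

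Summed over the class, H2B was at 68.8 ± 3.55 FPKM in HFD+AOS-FMT (65.74 to 72.71) and 54.8 ± 3.15 in HFD+control-FMT (51.52 to 57.82), with no overlap. The class was at 68.5 ± 8.66 FPKM in controls (61.86 to 78.29) and 63.6 ± 5.72 in HFD (58.61 to 69.84), and HFD+AOS-FMT overlapped both. HFD+control-FMT had the lowest mean of the 6 groups. Against HFD, 9 of 14 H2B genes were higher in HFD+AOS-FMT and 3 of 14 in HFD+control-FMT. Hist2h2be was at 7.55, 7.66 and 9.41 FPKM in HFD+control-FMT, all under the HFD+AOS-FMT libraries (0.29 log2, SE 0.103, adjusted p = 0.362). Its control and AOS libraries read 9.25, 8.65 and 11.15 and 8.56, 8.0 and 7.96 FPKM, and HFD+AOS read 8.55, 6.74 and 7.63, so that the HFD+AOS-FMT level was within the control range. Hist1h2bg, another H2B gene, read 4.95, 2.78 and 3.18 FPKM in HFD+AOS-FMT and 2.05, 1.80 and 1.71 in HFD+control-FMT (0.67 log2, SE 0.239, adjusted p = 0.363).

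The exception by the smallest p was Hist1h4i, which encodes core histone H4. It was at 10.81, 10.38 and 7.51 FPKM in HFD+AOS-FMT and higher in all 3 HFD+control-FMT libraries, at 12.97, 16.05 and 11.60 (-0.46 log2, SE 0.162, adjusted p = 0.362). In the other groups it lay between 8.46 (HFD 2) and 14.13 FPKM (HFD+AOS 1).

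The largest single difference between the FMT groups was that of Hist1h2ad, a cluster 1 H2A gene chosen for description after its values were seen. It read 67.34, 55.76 and 89.23 FPKM in HFD+AOS-FMT and 2.52, 41.58 and 30.33 in HFD+control-FMT. The remaining libraries were at 4.74, 2.50 and 55.60 in controls, 26.83, 55.19 and 8.29 with AOS, 28.25, 11.06 and 37.82 in HFD and 10.34, 32.80 and 16.33 in HFD+AOS. The 3 HFD+AOS-FMT libraries were the highest of the 18, but within every other group the values spread widely (coefficient of variation over all libraries 77.8%), and 32.9% of its 50-base stretches are unique.

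Hist1h2ad weighed on the sum of the 63 members other than Hist1h2ap and Hist1h2ao. That sum was 343 ± 11.3 FPKM in HFD+AOS-FMT (334 to 355), above 280 ± 29.1 in HFD (247 to 300) and 268 ± 31.9 in HFD+control-FMT (249 to 305). Without Hist1h2ad it was 272 ± 9.45 FPKM (266 to 283) against 255 ± 18.1 (236 to 272) and 243 ± 22.1 (220 to 263), and the ranges of HFD+AOS-FMT and HFD then overlapped.

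**Figure D4:**
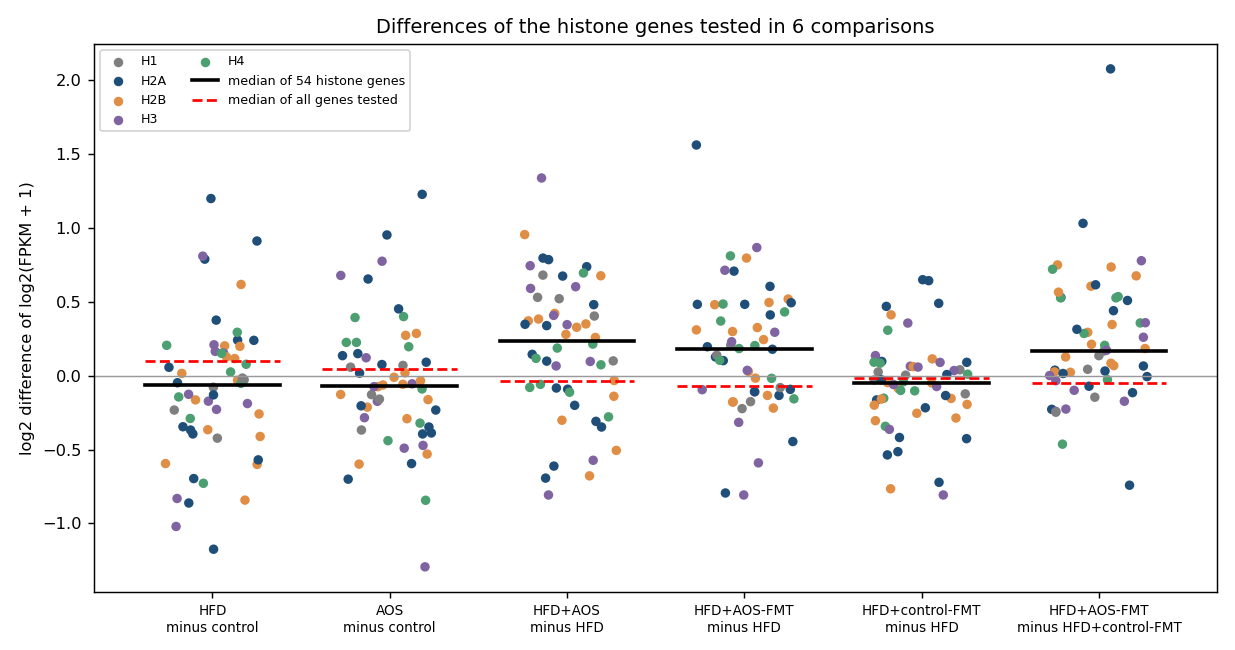
Difference on the log2(FPKM + 1) scale of each of the 54 histone genes tested (points, coloured by class) in 6 comparisons, with the median over these genes (black line) and over all genes tested (red dashed line). The black line lies above the red one for the 3 comparisons of HFD+AOS and HFD+AOS-FMT and below it for the other 3, and all 14 H2B points lie above 0 in the last column.

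Over the 4 diet groups against the 2 groups off the diet, 4 members had an unadjusted p under 0.05 (19.9% of all genes), 3 higher (13.2%) and 1 lower (6.72%), and none passed (0.0617% of all). The median was -0.02 log2, against 0.04 over all genes. Hist1h2bg (0.44 log2, SE 0.146, adjusted p = 0.174) and Hist1h2ah, an H2A gene (0.62 log2, SE 0.222, adjusted p = 0.187), had the smallest p. Hist1h2ah was at 0.79, 1.49 and 1.11 FPKM in controls, 1.74, 3.26 and 2.13 with AOS, 3.31, 2.47 and 2.23 in HFD, 9.13, 6.37 and 1.62 in HFD+AOS, 4.19, 5.04 and 3.29 in HFD+AOS-FMT and 1.36, 2.32 and 1.02 in HFD+control-FMT. No member's groups were free of overlap (0.0463% of all genes higher, 0.00771% lower).

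The F test over the 6 groups called no member, with 0.116% of all genes called. An unadjusted p under 0.05 was found for 9 members (22.0% of all), led by Hist1h2bc (adjusted p = 0.115) and Hist1h2bg (adjusted p = 0.118). Hist1h2bg passed the F test without control 3 (adjusted p = 0.0472), where 1060 of 13038 genes passed. Hist1h2ah passed it without HFD+AOS 3 (adjusted p = 0.0283), where 9 of 12964 genes passed.

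The remaining genes described lie mostly outside cluster 1. Hist2h2aa1, an H2A gene of cluster 2, ranged from 25.49 to 37.93 FPKM with a median of 31.98. Hist3h2a, the H2A gene of cluster 3, read 15.20, 21.48 and 22.59 FPKM in controls, 15.80, 15.19 and 18.45 with AOS, 22.17, 22.36 and 25.14 in HFD, 18.52, 20.59 and 21.09 in HFD+AOS, 16.76, 25.16 and 22.04 in HFD+AOS-FMT and 18.65, 20.60 and 22.66 in HFD+control-FMT. It was lower in the AOS group than in HFD without overlap, and the diet groups averaged 0.23 log2 above the others (SE 0.0896, adjusted p = 0.198). That difference passed without control 3 (limma adjusted p = 0.0496), where 2157 of 13038 genes passed.

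Hist3h2ba, the H2B gene of cluster 3, read 6.84, 9.28 and 6.01 FPKM in HFD+AOS-FMT, above 4.20, 4.03 and 5.15 in HFD+control-FMT (0.60 log2, SE 0.250, adjusted p = 0.425). Its range over the other groups was 2.95 (HFD 3) to 8.37 FPKM (HFD+AOS 2). Hist4h4, the H4 gene of cluster 4, ranged from 4.39 (HFD+AOS 2) to 14.40 FPKM (AOS 3), with a median of 10.57. Among the H4 genes, Hist1h4m was the highest, from 8.74 (AOS 1) to 17.13 FPKM (HFD+AOS-FMT 1) with a median of 14.63. Hist2h3c2, the highest H3 gene, ran from 0 (AOS 3) to 9.19 FPKM, and its copy was not at 0 in AOS 3.

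**Figure D5:**
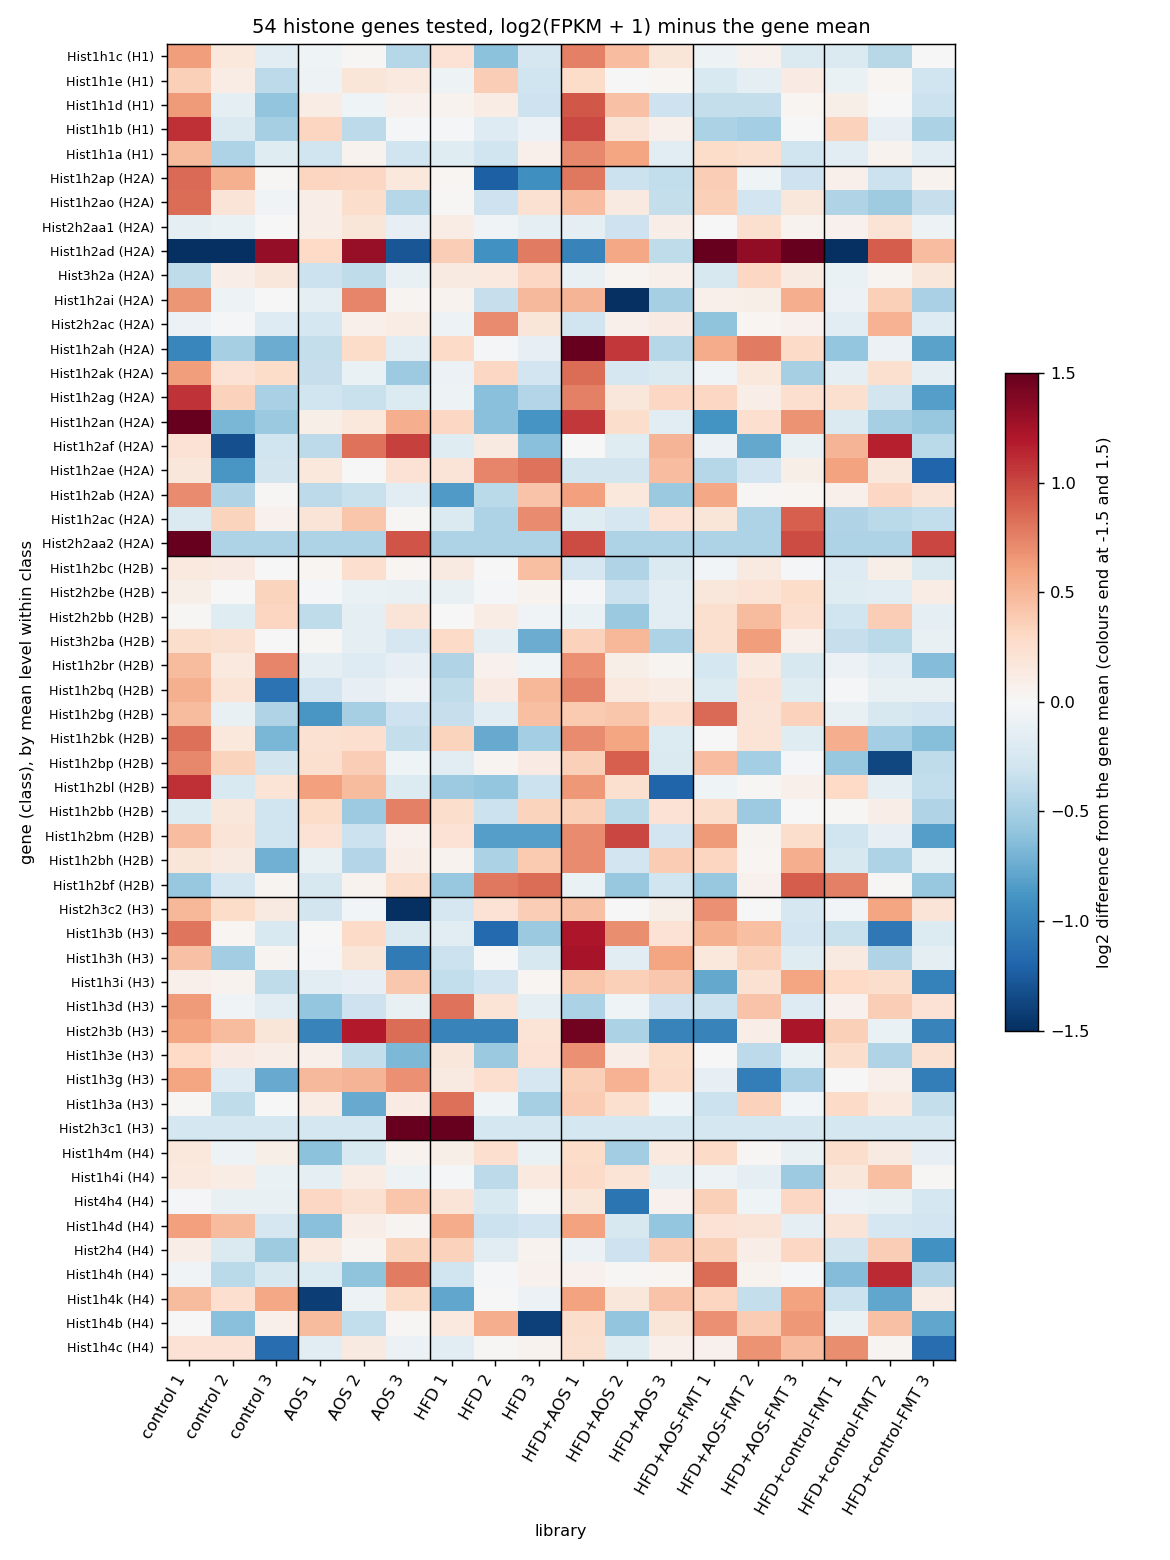
Difference of log2(FPKM + 1) from the gene's mean over 18 libraries (colour) for the 54 histone genes tested (rows, by class and mean level) in each library (columns, grouped by treatment). Control 1 and HFD+AOS 1 hold the highest value of their group for 39 and 38 of the 54 genes (share over all genes not counted), and Hist1h2ad spans the colour scale.

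Across the 18 libraries the members did not move as one. Pearson's r of log2 values with Mki67, a gene of dividing cells, ran from -0.638 (Hist2h2ac) to 0.845 (Hist1h2ap) over the 54 members, with a median of 0.170. It was above 0.5 for 12 members and below 0 for 14. Besides Hist1h2ap the highest were Hist1h3b (0.820), Hist1h2ao (0.746), Hist1h2bm (0.738) and Hist1h1c (0.735), and after Hist2h2ac the lowest were Hist1h2bf (-0.553), Hist1h2ae (-0.497) and Hist3h2a (-0.490). The libraries share their scaling, and control 1 and HFD 2 are the ends of the Mki67 range, at 191.62 and 60.77 FPKM. Removing group means left r at 0.847 for Hist1h2ap. With the erythroid gene Alas2, r was 0.780 for Hist1h2ap, 0.658 for Hist1h3b and 0.700 for Hist1h2ao. It was 0.724 for Hist1h2bm, 0.680 for Hist1h1c and -0.498 for Hist2h2ac. Whether members follow Mki67 or Alas2 was not tested. These values are a description.

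The members' transcript models end in different places. For 22 members the model runs at least 100 bases past the stem-loop, which a message cut at the stem-loop would not, and for 21 it ends near it. The median r with Mki67 was 0.153 in the former and 0.167 in the latter, with 18 members tested in each. Whether the libraries were made by poly(A) selection is not given in the sources used here.

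Genes of the same pathway were counted from lists. In HFD against control, 4 of 22 genes of S phase and DNA replication passed the adjusted test, all lower (Ccne1, Ccne2, Cdc6 and Mki67). The list median was -0.47 log2, against 0.10 over all genes, and 19 of the 22 had an unadjusted p under 0.05. Of 16 histone chaperones and import factors, 8 had an unadjusted p under 0.05 and 1 passed. This was Asf1a, which hands H3 and H4 to assembly factors, and it was lower (-0.32 log2, SE 0.0819, limma adjusted p = 0.0479). Among 11 replication-independent histones 0 passed (median -0.16, 3 with an unadjusted p under 0.05). Of 15 tested genes of histone message transcription and processing none passed (median 0.03, 3 with an unadjusted p under 0.05). Beside these counts, 2.75% of all genes passed and 28.6% had an unadjusted p under 0.05. All calls of this comparison depend on the scaling: after median-ratio scaling, or without haemoglobin rows, no gene passed.

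Slbp, the protein that binds the stem-loop, read 162.81, 126.31 and 102.42 FPKM in controls and 104.76, 84.66 and 88.05 in HFD, with 1 overlap. By the F test the 2 smallest p in each list were those of H1f0 (adjusted p = 0.101) and H2afj (0.118) among replication-independent histones, Coil (0.145) and Slbp (0.221) in message processing, Daxx (0.0916) and Hjurp (0.116) among chaperones, and Cdc6 (0.0729) and Ccne2 (0.0821) in S phase. None passed. In HFD+AOS against HFD all 22 S phase genes lay above 0 (median 0.36 log2), and in HFD+AOS-FMT against HFD 21 of 22 did (0.35 log2). No gene of that list passed in either, while 10 and 11 had an unadjusted p under 0.05, against 15.0% and 13.6% of all genes.

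Marker lists of spleen cell types and of testis germ cells were counted in the same way. Of all genes tested, 2.75% passed in HFD against control and 28.6% had an unadjusted p under 0.05. In HFD against control, with the same dependence on scaling, 9 of 14 erythroid genes passed, all lower (median -1.10 log2), with a summed level of 1970 to 3193 FPKM in controls and 828 to 1809 in HFD. Of 8 T cell genes 5 passed, all higher (0.70 log2), and of 8 germinal centre B cell genes Bcl6 and Fas passed, both higher (0.34 log2). Of 10 testis germ cell genes Prm1, Prm2 and Tnp1 passed, all lower (-1.69 log2). An unadjusted p under 0.05 was held by 14 erythroid, 8 T cell, 2 germinal centre B cell and 8 testis germ cell genes. No gene passed among 10 neutrophil precursor (-1.94 log2, 10 with an unadjusted p under 0.05), 8 plasma cell (0.31 log2, 1), 8 B cell (0.42 log2, 5) or 6 megakaryocyte genes (-0.68 log2, 5). Neutrophil precursor genes summed to 6399, 1841 and 326 FPKM in controls 1, 2 and 3 and to 249 to 550 in HFD, so that control 3 lay inside the HFD range. Megakaryocyte genes summed to 1978 FPKM in control 1, against 602 to 1069 in the other 17 libraries. Control 1 was also the control library with the highest value for 39 of 54 histone genes, a share not counted over all genes.

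In HFD+AOS against HFD no marker passed, and the list medians were 0.95 log2 for plasma cells (8 of 8 genes above 0) and 0.50 log2 for erythroid cells (14 of 14). They were -0.26 log2 for B cells (8 of 8 genes below 0), -0.32 for T cells (7 of 8) and -0.44 for neutrophil precursors (9 of 10). An unadjusted p under 0.05 was held by 7 plasma cell, 4 erythroid, 3 B cell, 3 T cell and 0 neutrophil precursor genes, against 15.0% of all genes. In HFD+AOS-FMT against HFD+control-FMT the erythroid list had a median of 0.72 log2, all 14 genes above 0. Its summed level was 1901 to 2006 FPKM against 1065 to 1424, and 12 genes had an unadjusted p under 0.05, against 10.5% of all genes. All 8 germinal centre B cell genes (median -0.38 log2) and all 8 plasma cell genes (-0.33) lay below 0 there. So did all 10 neutrophil precursor genes (-0.20) and all 6 megakaryocyte genes (-0.24). All 10 testis germ cell genes lay above 0 (0.49). In these lists besides the erythroid one, 1 gene, of germinal centre B cells, had an unadjusted p under 0.05. No marker passed in that comparison. The part of these cell types in the histone differences was not tested. The spleen markers of B cells read 1494 to 2989 FPKM summed over 8 genes, and none of these 8 was at 0 in any library.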

How the data were processed

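RNA of 18 spleen samples was sequenced on Illumina libraries, per the labels' protocols. Reads were aligned with Bowtie 0.12.2 to mm10, per the submitters' processing notes, and the authors deposited 1 table of 19326 genes. Its unit is not given in the sources used here. The deposited numbers were read as FPKM because totals weighted by transcript length varied by 0.785% between libraries, against 7.55% for plain totals. Columns were matched to samples by group code and number.

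Members and gene lists were chosen with earlier results of these data known. Values were analysed as log2(FPKM + 1), for genes whose mean reached 1 FPKM in any group, with limma 3.58.1 (trend, robust; statmod 1.5.0, R 4.3.3), in 1 fit to 18 libraries (12 residual degrees of freedom). Adjustment followed Benjamini and Hochberg over all genes tested in a comparison, at 0.05. The fit was tested on simulated data. Named were the 2 highest members of each class, the 2 members with the smallest p of each comparison where none passed, all H1 genes, testis-expressed members, clusters 3 and 4, and the 2 genes of each pathway list with the smallest p of the F test. Other members named were chosen after their values were seen. Titles number the libraries of each group 1 to 3. Same-numbered libraries deviated together in HFD+AOS and HFD (correlations 0.191 to 0.268) but not in every pair of the other comparisons. The numbers were therefore treated as pairing HFD+AOS and HFD only, although HFD+AOS 3 correlated more highly with an HFD library of another number. Alternatives changed the pseudocount, the filter, the scaling, the replicate block, the groups fitted and the libraries. Sequences came from GENCODE vM21 and RefSeq, and summaries used Python 3.11.15, pandas 2.3.3 and matplotlib 3.10.9.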

Additional observations from a re-analysis of the deposited data

How the results depend on the processing

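Counts of all genes called varied most. In HFD against control 357 genes passed, but 0 did without a filter, with median-ratio scaling, without haemoglobin rows or with only the groups compared, 625 with a filter of 5 FPKM and 1842 with the replicate block. Hist1h2ap passed under the 5 FPKM filter (adjusted p = 0.0487) and the block (adjusted p = 0.0217), which gave 1 histone gene called instead of 0 in each. In HFD+AOS against HFD, where numbers were treated as pairing the libraries, the block gave 33 genes (main 0). It gave 1 with only the groups compared, a setting chosen after seeing the data. No histone call changed there. The same comparison gave 1 gene with the 5 FPKM filter, without haemoglobin rows or with only the groups compared, and 2 with median-ratio scaling, and its median over histone genes was -0.076 under the 5 FPKM filter. HFD+control-FMT against HFD gave 1 gene (main 2) with a pseudocount of 0.1, the 5 FPKM filter or only the groups compared. The diet groups gave 5 (main 8) without a filter or with 5 FPKM and 4 with median-ratio scaling. The F test gave 36 (main 15) with a pseudocount of 0.1, 2 without a filter, 38 with 5 FPKM, 3 without haemoglobin rows and 210 with the block. With only the groups compared, AOS against control and HFD+AOS-FMT against HFD gave 1 (main 0) and the 2 FMT groups 4 (main 1, and 2 with the block). Summed histone FPKM without Hist1h2ap was 690, 585, 584, 632, 670 and 491 in the order control, AOS, HFD, HFD+AOS, HFD+AOS-FMT and HFD+control-FMT. The cause of these moves was not tested.

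Leaving out 1 library at a time gave 0 to 3818 genes in HFD against control (most without control 3), 0 to 304 in AOS against control, 0 to 22 in HFD+AOS against HFD, 0 to 39 in HFD+AOS-FMT against HFD, 0 to 3 in HFD+control-FMT against HFD, 1 to 7 between the FMT groups, 0 to 2157 for the diet groups and 1 to 1060 in the F test. Histone calls ranged from 0 to 2 in HFD against control (Hist1h2ap and Hist1h2ag without control 3), 0 to 1 for the diet groups (Hist3h2a without control 3) and 0 to 1 in the F test (Hist1h2bg without control 3, Hist1h2ah without HFD+AOS 3). The median over histone genes ran from -0.22 to 0.071 in HFD against control (0.071 without control 1), -0.21 to 0.11 in AOS against control (0.11 without control 1), 0.091 to 0.22 in HFD+AOS-FMT against HFD (0.091 without HFD 2), -0.13 to 0.014 in HFD+control-FMT against HFD (0.014 without HFD+control-FMT 3), 0.056 to 0.26 between the FMT groups (0.056 without HFD+control-FMT 3), -0.058 to 0.076 for the diet groups (0.076 without control 1), 0.017 to 0.31 in HFD+AOS against HFD (0.017 without HFD+AOS 1) and 0.056 to 0.52 for the interaction. Hist1h2ap in HFD against control ran from -1.54 to -0.91 log2. No histone gene passed in the main fit, so no called histone gene could change sign. Medians over histone genes did change sign. Without control 1 they went from -0.07 to 0.071 log2 in HFD against control and from -0.07 to 0.11 in AOS against control. With the 5 FPKM filter the median of HFD+AOS against HFD went from 0.24 to -0.076. Depth is unknown, so no counting error could be given. Median-ratio scaling centres each library on its median gene. By construction it therefore moved the HFD against control median of all genes from 0.10 to 0.00 log2.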
